A study of Mus musculus with 20 samples.

Results

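The insulin-like growth factor (IGF) and insulin receptor axis was described here through 10 genes: the ligands Igf1 and Igf2, the receptors Igf1r and Insr, the receptor substrates Irs1 and Irs2, the binding proteins Igfbp3 and Igfbp5, and the kinases Akt1 and Akt2. They are a fixed list of names, with no threshold on their values, and were found by symbol among the 55416 genes of the count data. All 10 had enough reads to be tested, among 14471 genes that did. Quadriceps muscle came from male wild-type C57BL/6J mice aged 26 to 28 months. In a state fasted for 4 h, they received a single intramuscular dose of 50 µL. The dose was 0.9% saline (control, n = 10) or the secretome of pluripotent stem cells (secretome-treated, n = 10), and muscles were sampled 3 h after the injection. The paper describes the secretome as a product of partially differentiated human embryonic stem cells, diluted in saline for injection. One muscle gave one library of total RNA depleted of ribosomal RNA. All mice were old, so the saline group is a control for the injection and not for age.

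The libraries held 13286983 to 22987237 counts on genes. Skeletal muscle markers (Acta1, Ckm, Ttn and myosin heavy chains among them) summed to between 115407 and 329342 CPM (counts scaled to library size) in every library, and the lowest values, 115407 to 190340 CPM, were those of libraries 1 to 5. Libraries 1 to 5 were all controls and libraries 16 to 20 were all secretome-treated, while libraries 6 to 15 held control replicates 6 to 10 and secretome replicates 1 to 5. The labels give these numbers without calling them a batch. Differences over all 20 libraries therefore cannot be told apart from differences between library ranges, and the results of the 10 genes are also given within libraries 6 to 15.

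IGF1, IGF2 and insulin bind related receptor tyrosine kinases, which phosphorylate insulin receptor substrates that in turn recruit phosphoinositide 3-kinase (PI3K). PI3K leads to the activation of Akt, which promotes glucose uptake, glycogen synthesis and protein synthesis in muscle and holds FoxO transcription factors out of the nucleus. IGF-binding proteins hold the ligands in the extracellular space and alter their access to the receptors. Transcript counts measure none of these phosphorylation steps.

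None of the 10 genes differed between secretome-treated and control muscle at a 5% false discovery rate, either over 20 libraries or within libraries 6 to 15 (edgeR's quasi-likelihood test, Benjamini-Hochberg adjustment over all genes tested). At the same threshold, 0.00691% of all genes tested passed over 20 libraries and 0% passed within libraries 6 to 15. An unadjusted p under 0.05 was reached by 0 of the 10 genes over 20 libraries, beside 15.7% of all genes tested (6.52% higher and 9.21% lower in secretome-treated muscle), and by 1 of 10 (Igfbp3, lower) within libraries 6 to 15, beside 9.95% (5.02% higher and 4.92% lower). By DESeq2, 0 of the 10 passed, beside 1.18% of all genes. Of the 10 log2 fold changes over 20 libraries, 6 were above 0 and 4 below, beside 44.1% above 0 over all genes tested. Their median was 0.03, and the median over all genes tested was -0.03.

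**Figure D1:**
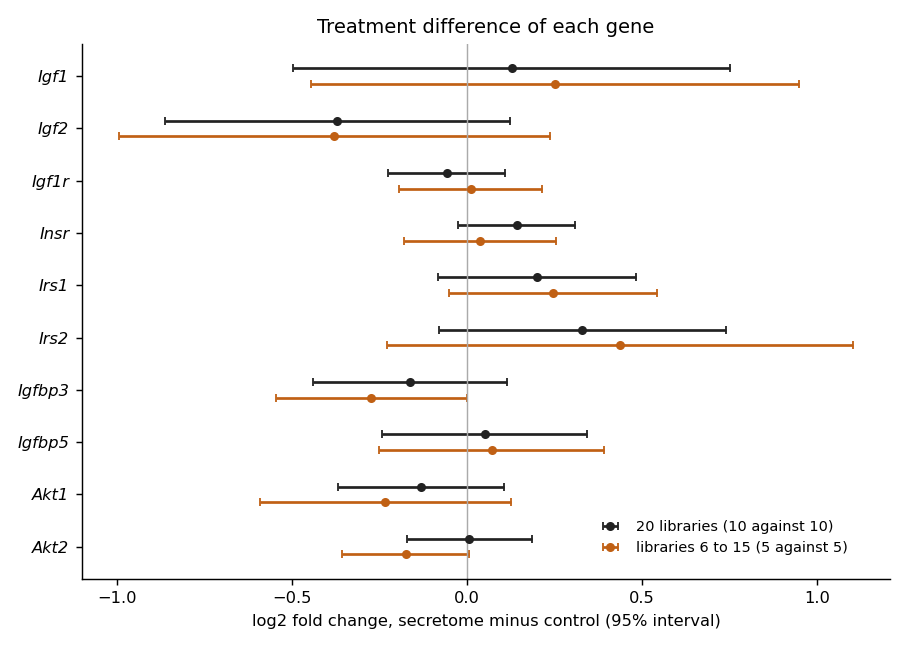
Difference between secretome-treated and control muscle for the 10 genes of the axis, on the log2 scale, with its 95% confidence interval, over all 20 libraries and within libraries 6 to 15. All 10 intervals over 20 libraries cover 0, and the interval is widest for Igf1 and narrowest for Igf1r and Insr.

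The abundance of the 10 transcripts differed widely. Per kilobase of exon, the level was highest for Igfbp5, at 125.5 ± 26.6 CPM per kilobase (SD, n = 20), and next for Akt2, at 34.9 ± 4.04. Irs2 (15.2 ± 5.11), Irs1 (14.9 ± 3.53), Akt1 (12.9 ± 2.63) and Insr (11.8 ± 1.38 CPM per kilobase) lay close together, and their order was not stable between libraries: Irs2 was above Irs1 in 11 of 20 libraries, Irs1 above Akt1 in 14 and Akt1 above Insr in 12. With the length of the longest transcript in place of all exons, these 4 genes changed places and the other 6 kept theirs. Igfbp3 (3.99 ± 0.843 CPM per kilobase) was above Igf1r (2.65 ± 0.30) in 19 of 20 libraries, and Igf1r was above Igf1 (2.09 ± 1.00) in 14. Igf2 was lowest, at 0.531 ± 0.209 CPM per kilobase. Among 14417 tested genes with a known length, Igfbp5 stood at percentile 98.8, Akt2 at 95, Igf1r at 51.5, Igf1 at 45.0 and Igf2 at 16.

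**Figure D2:**
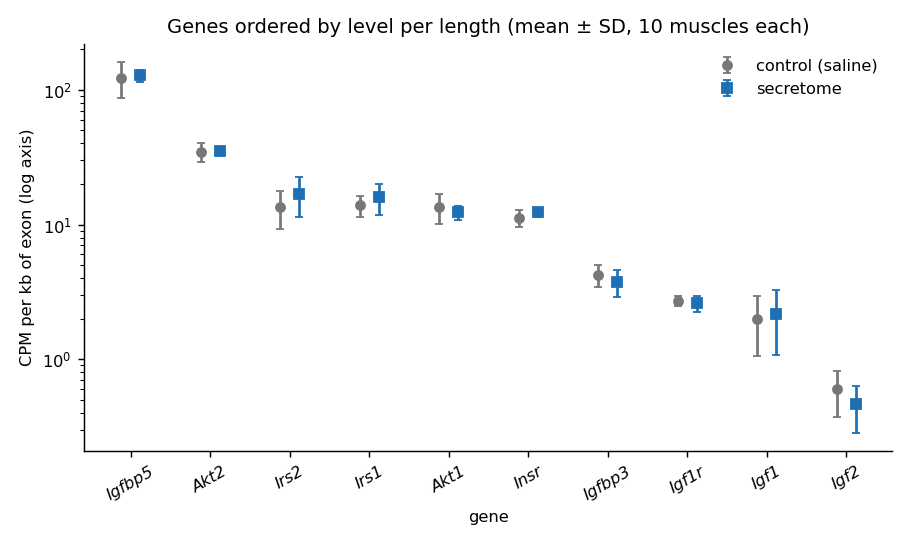
Level of each of the 10 genes in CPM per kilobase of exon on a log axis, as the mean and SD of 10 control and of 10 secretome-treated muscles, with the genes ordered by their mean over both groups. Igfbp5 (125.5 over both groups) and Akt2 (34.9) stand above the rest, Igf2 (0.531) is lowest, and the error bars of Irs2, Irs1, Akt1 and Insr overlap.

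Igf1 encodes the main IGF of growth and muscle repair, made in muscle by several cell types. Its level ranged from 8.91 to 34.1 CPM in control muscle (median 18.4) and from 8.33 to 45.5 CPM in secretome-treated muscle (median 22.3). The groups overlapped almost completely, and the means were 19.8 ± 9.28 CPM in control and 21.6 ± 11 CPM in secretome-treated muscle (SD, n = 10 each). The log2 fold change was 0.13 (SE 0.30, edgeR adjusted p = 0.860), and 7 of 10 secretome-treated muscles were above the control median. The 5 controls of libraries 6 to 15 had 8.91, 9.94, 11.6, 13.9 and 19.3 CPM, and the 5 secretome-treated muscles of that range had 11.2, 8.33, 9.78, 22.0 and 23.7 CPM. Secretome replicates 4 and 5 were above all 5 of these controls, replicate 2 was below them, and replicates 1 and 3 lay among them (log2 fold change 0.25, edgeR adjusted p = 0.787). By library range, Igf1 was at 17.6 to 34.1 CPM in libraries 1 to 5 and at 18.7 to 45.5 CPM in libraries 16 to 20, and at 8.33 to 23.7 CPM in libraries 6 to 15. All 5 controls of libraries 1 to 5 except replicate 2 were above every control of libraries 6 to 10. Without secretome replicate 6, which had the highest value, the log2 fold change over the remaining 19 libraries was -0.06.

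The summed fibroblast markers, like most Igf1 values, were lower in libraries 6 to 15 than in the other libraries. Between libraries 1 to 5 and 16 to 20 the 2 parted: the fibroblast sum was lower in libraries 16 to 20, while the Igf1 log2 fold change was 0.07. The 6 fibroblast markers (Pdgfra, Dcn, Lum, Col1a1, Col3a1 and Pi16), of which none was at 0 in every library, summed to 680 to 952 CPM in libraries 1 to 5 and 444 to 592 CPM in libraries 16 to 20. In libraries 6 to 15 the sum was 179 to 431 CPM in control and 264 to 375 CPM in secretome-treated muscle. Over 20 libraries none of the 6 had an unadjusted p under 0.05 between treatments. Lum alone did within libraries 6 to 15, with a log2 fold change of 0.60 (edgeR unadjusted p = 0.00905, adjusted p = 0.447), and Pdgfra, Lum and Pi16 did between libraries 1 to 5 and 16 to 20, with -0.48, -0.72 and -0.82. Whether the amount of these cells bears on Igf1 was not tested, and in whole muscle fewer cells of a type and less RNA per cell cannot be told apart.

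**Figure D3:**
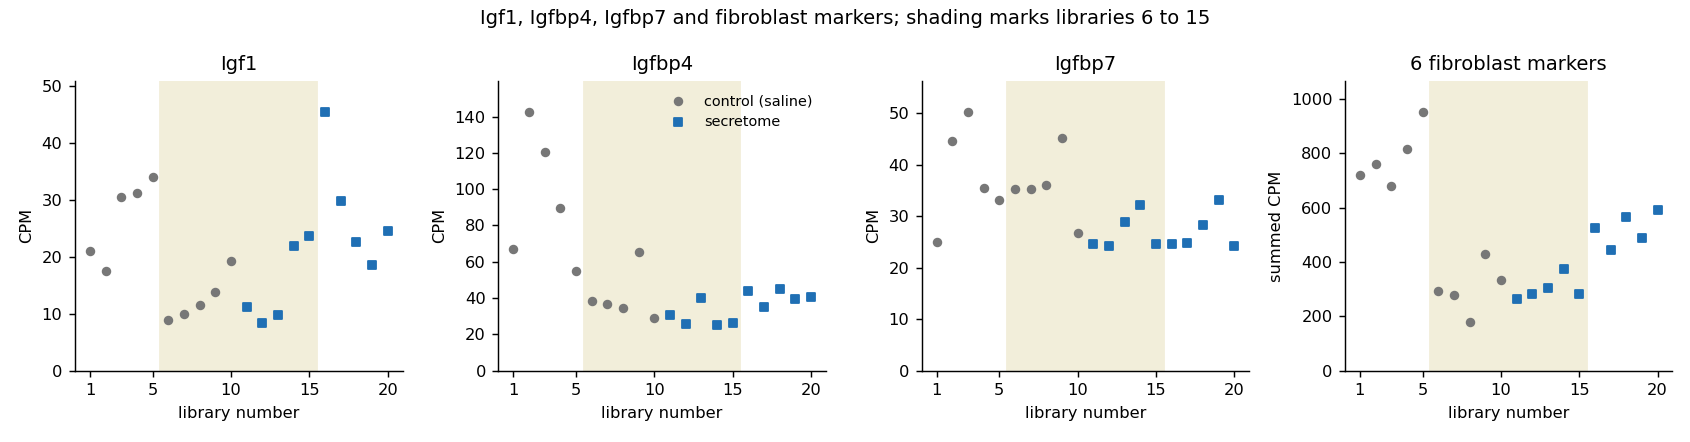
Levels of Igf1, Igfbp4 and Igfbp7 and the sum of 6 fibroblast markers, in CPM, against the library number from 1 to 20, with control muscles as gray circles, secretome-treated muscles as blue squares and libraries 6 to 15 shaded. The fibroblast sum is highest in libraries 1 to 5 (680 to 952 CPM) and lowest in libraries 6 to 15 (179 to 431 CPM), and Igf1 is also mostly lower in libraries 6 to 15.

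Igf2 encodes a second IGF, which is abundant before birth and low in adult muscle. It was counted 19 to 87 times per library, so its values carry large counting error, and it overlaps an antisense gene, so that its reads are uncertain in so far as counting did not use strand. Its level ranged from 1.93 to 5.55 CPM in control (median 3.28) and from 1.19 to 4.01 CPM in secretome-treated muscle (median 2.73). The means were 3.43 ± 1.28 and 2.64 ± 1.01 CPM, and 7 of 10 secretome-treated muscles were below the control median. This gave a log2 fold change of -0.37 (SE 0.238, edgeR adjusted p = 0.447), and its 95% interval ran from -0.86 to 0.12. The value was close to that in libraries 6 to 15 alone, at -0.38 (edgeR adjusted p = 0.654).

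Igf1r, the receptor of IGF1 and IGF2, was among the steadiest of the 10 genes. It ranged from 41.1 to 52.9 CPM in control (median 45.0) and from 33.5 to 56.0 CPM in secretome-treated muscle (median 43.8). The range of the secretome-treated muscles enclosed that of the controls, and both extremes, secretome replicates 6 and 9, came from libraries 16 to 20. Between treatments it differed by -0.06 on the log2 scale (SE 0.0809, edgeR adjusted p = 0.754), with a 95% interval from -0.22 to 0.11. In libraries 6 to 15 the difference was 0.01 (edgeR adjusted p = 0.973).

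Insr encodes the insulin receptor. It ranged from 119 to 203 CPM in control (median 152) and from 145 to 194 CPM in secretome-treated muscle (median 169), and 9 of 10 secretome-treated muscles were above the control median. The highest single value was nevertheless that of a control, replicate 8. The log2 fold change was 0.14 (SE 0.0808, edgeR adjusted p = 0.392), with a 95% interval from -0.02 to 0.31. Between libraries 1 to 5 and 16 to 20 it was 0.26 (unadjusted edgeR p = 0.0560), and within libraries 6 to 15 it was 0.04 (unadjusted edgeR p = 0.724, adjusted p = 0.911). In libraries 6 to 15, controls had 162, 153, 203, 148 and 155 CPM and secretome-treated muscles 171, 177, 168, 161 and 160 CPM. The difference between these 2 treatment differences was -0.24 on the log2 scale (edgeR adjusted p = 0.587).

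Irs1 and Irs2 encode the adaptors that carry the signal from both receptors to PI3K. Their promoters are shown because, among the 9 genes with a RefSeq promoter entry (16 windows of 250 bases before the transcription start, GRCm38.p6), only those of Irs1 and Irs2 held both an E-box, CACGTG, and TGTTTTG, the core letters of the insulin response element, on either strand. Of 32851 promoter windows of the same length, 6.02% held CACGTG, 5.56% held TGTTTTG and 0.295% held both. FoxO proteins are known to bind insulin response elements and E-boxes are bound by basic helix-loop-helix factors. A further motif searched, the FoxO core GTAAACA, was in 3.17% of all windows. Among the 16 windows it was in 1, that of Akt1, and so in neither the Irs1 nor the Irs2 window. The motifs were chosen after the windows had been read, and a match is a description of letters and not of binding. Both sequences run 5′ to 3′ on the gene's strand and end at the base before the start, and capitals mark the motifs.
Irs1, chr1:82291440-82291689, minus strand: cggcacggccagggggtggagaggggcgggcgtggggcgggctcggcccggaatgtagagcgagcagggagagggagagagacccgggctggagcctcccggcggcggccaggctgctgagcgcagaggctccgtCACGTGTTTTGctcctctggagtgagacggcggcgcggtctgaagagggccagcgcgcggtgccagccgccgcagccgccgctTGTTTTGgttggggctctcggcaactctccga
Irs2, chr8:11008930-11009179, minus strand: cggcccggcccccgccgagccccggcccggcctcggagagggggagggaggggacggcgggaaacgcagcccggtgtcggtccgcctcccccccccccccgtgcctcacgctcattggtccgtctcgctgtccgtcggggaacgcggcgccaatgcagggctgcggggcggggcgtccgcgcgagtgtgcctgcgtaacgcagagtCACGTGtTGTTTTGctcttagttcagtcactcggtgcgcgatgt
In the Irs1 window the E-box lies 115 to 110 bases before the start and shares letters with a first insulin response element core at 111 to 105, and another copy of that core lies at 32 to 26. The Irs2 window has its E-box 44 to 39 bases before the start, followed by the core at 37 to 31.

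Irs1 ranged from 95.6 to 166 CPM in control (median 123) and from 100.2 to 199 CPM in secretome-treated muscle (median 133). Secretome replicates 2, 6, 7 and 10, at 184, 192, 177 and 199 CPM, were above every control, and the other 6 lay within the control range. Over 20 libraries its log2 fold change was 0.20 (SE 0.137, edgeR adjusted p = 0.476). The controls of libraries 6 to 15 had 136, 123, 104, 95.6 and 123 CPM and the secretome-treated muscles 140, 184, 121, 127 and 112 CPM, which gave 0.24 (unadjusted edgeR p = 0.0994, adjusted p = 0.563). Here replicates 1 and 2 were above the controls and the others overlapped with them.

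Irs2 had a wide spread in both groups, from 50.9 to 135 CPM in control (median 83.1) and from 49.4 to 152 CPM in secretome-treated muscle (median 115). The means were 85.3 ± 26.5 and 107 ± 35.2 CPM (SD, n = 10 each), and 7 of 10 secretome-treated muscles were above the control median. For Irs2 the log2 fold change was 0.33 (SE 0.198, edgeR adjusted p = 0.420), with a 95% interval from -0.08 to 0.74. Controls of libraries 6 to 15 had 65.6, 93.7, 99.2, 56.6 and 50.9 CPM and the secretome-treated muscles 134, 152, 85.2, 72.1 and 49.4 CPM. Secretome replicates 1 and 2 exceeded all of these controls while replicate 5 was below them (log2 fold change 0.44, edgeR adjusted p = 0.630). Secretome replicate 2 had the highest Irs1 and the highest Irs2 within libraries 6 to 15. Across the 20 libraries, after the mean of each treatment and library range was subtracted, Nr4a1, an immediate early gene of the nuclear receptor family, was among the 3 genes most like Irs2 (Pearson r = 0.770, over 20 libraries that share library effects, as a description), beside Gbf1 (r = 0.794) and Asrgl1 (r = 0.768).

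**Figure D4:**
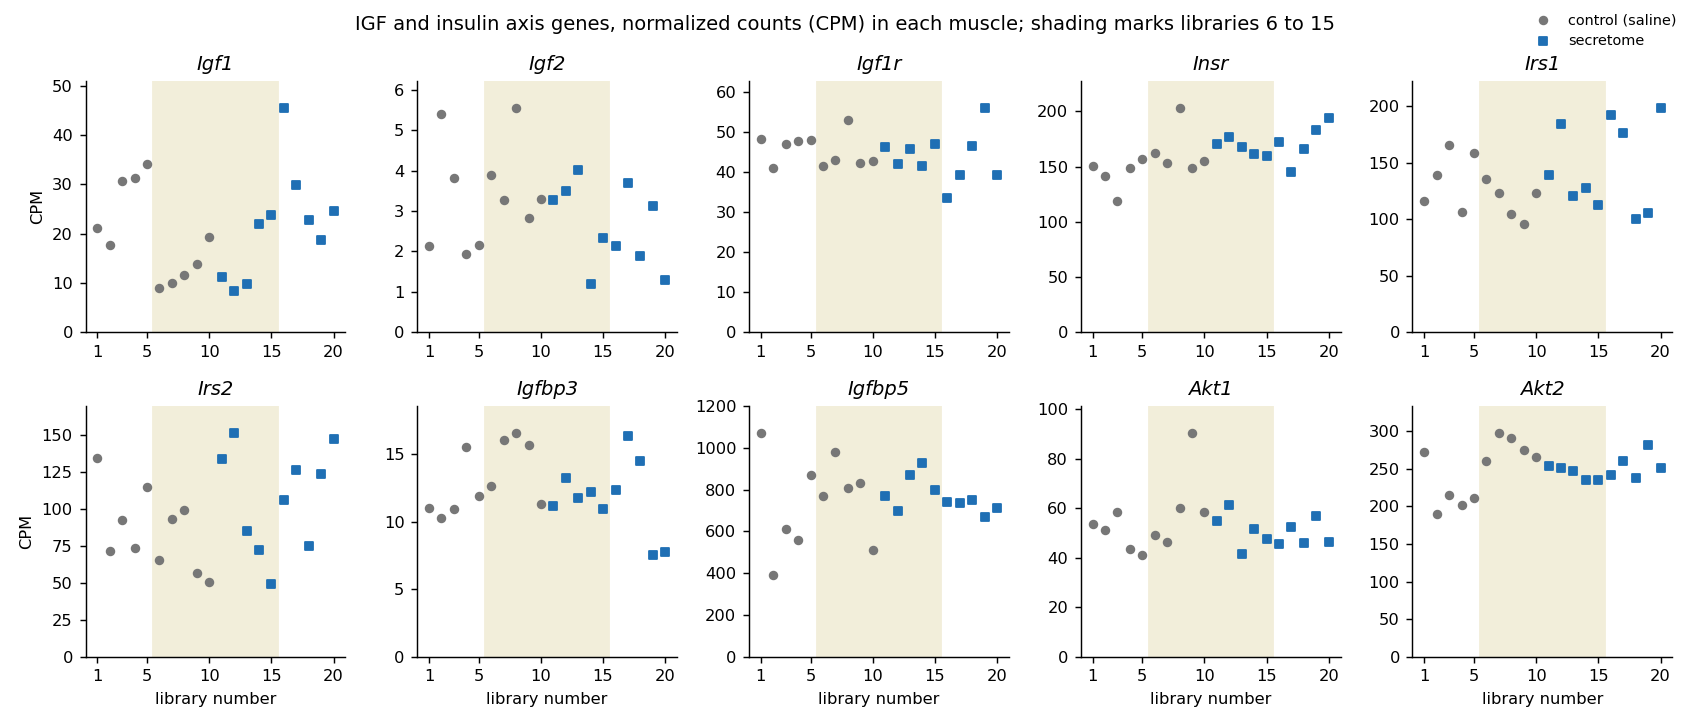
Level of each of the 10 genes in every library, in CPM, against the library number from 1 to 20, with control muscles as gray circles, secretome-treated muscles as blue squares and libraries 6 to 15 shaded. Akt2 of the 5 shaded controls (260 to 298 CPM) lies above the 5 shaded secretome-treated muscles (235 to 253 CPM), and control replicate 9 stands apart for Akt1, at 90.6 CPM.

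Igfbp3 encodes the main carrier of IGFs in blood. It ranged from 10.3 to 16.6 CPM in control (median 12.3) and from 7.50 to 16.3 CPM in secretome-treated muscle (median 12). Over 20 libraries the log2 fold change was -0.16 (SE 0.134, edgeR adjusted p = 0.560). In libraries 6 to 15, Igfbp3 in controls was at 12.6, 16.1, 16.6, 15.7 and 11.3 CPM and in secretome-treated muscles at 11.2, 13.2, 11.8, 12.2 and 10.9 CPM. All 5 secretome-treated muscles were below the control median there, but 3 of them were above the lowest control. This difference was -0.27 on the log2 scale (unadjusted edgeR p = 0.0491, adjusted p = 0.499), and a two-sided exact permutation test of the mean log2 CPM of 5 against 5 gave p = 0.0794. Between libraries 1 to 5 and 16 to 20 it was -0.03, and the 2 differences did not differ beyond their error (edgeR unadjusted p = 0.344).

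Igfbp5, the most abundant of the 10 genes and the main IGF-binding protein of muscle, ranged from 392 to 1073 CPM in control (median 791) and from 669 to 930 CPM in secretome-treated muscle (median 745). The controls included both the lowest and the highest value, in replicates 2 and 1, both from libraries 1 to 5. The means were 741 ± 217 and 767 ± 80.2 CPM (SD, n = 10 each), and the log2 fold change was 0.05 (SE 0.142, edgeR adjusted p = 0.886). For libraries 6 to 15 the value was 0.07 (edgeR adjusted p = 0.879).

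Akt1 and Akt2 encode isoforms of the Akt kinase, of which Akt2 is the one most tied to insulin-stimulated glucose uptake. Akt1 ranged from 41.1 to 90.6 CPM in control (median 52.3) and from 41.5 to 61.1 CPM in secretome-treated muscle (median 49.7). The highest control, replicate 9, was far above the next, at 59.9 CPM. Its log2 fold change was -0.13 (SE 0.115, edgeR adjusted p = 0.586), and -0.03 without control replicate 9. Within libraries 6 to 15 it was -0.23 (edgeR adjusted p = 0.637) with that replicate and -0.05 without it.

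Akt2 was the only one of the 10 genes whose groups did not overlap within libraries 6 to 15. The 5 controls had 260, 298, 290, 275 and 265 CPM, and the 5 secretome-treated muscles had 253, 251, 247, 235 and 235 CPM. Every secretome-treated muscle was below every control, which held for 1.91% of all genes tested in either direction and for 1.09% in this direction. The means were 278 ± 16 and 244 ± 8.75 CPM (SD, n = 5 each), and the log2 fold change was -0.18 with a 95% interval from -0.36 to 0.01 (edgeR unadjusted p = 0.0579, adjusted p = 0.518). The two-sided exact permutation test gave p = 0.00794, which is the smallest that 252 arrangements of 5 against 5 allow and is not adjusted for the 10 genes. Any gene without overlap gets this value, so it restates the separation above and is not a second result. In the other libraries the direction was the opposite. Controls of libraries 1 to 5 had 273, 190, 215, 202 and 211 CPM, and secretome-treated muscles of libraries 16 to 20 had 242, 260, 237, 281 and 251 CPM. All of those controls except replicate 1 were below every secretome-treated muscle of libraries 16 to 20, and the log2 fold change was 0.22 (edgeR unadjusted p = 0.103). The difference between the 2 treatment differences was -0.41 on the log2 scale (edgeR unadjusted p = 0.00763, adjusted p = 0.252), for a contrast in which 0.0553% of all genes passed the 5% false discovery rate and 11.1% reached an unadjusted p under 0.05 (5.59% higher and 5.51% lower). Its adjusted p ran from 0.0588 to 0.248 over 2 alternatives, which were DESeq2 and edgeR with the RLE normalization. Over all 20 libraries, which hold both directions, the log2 fold change was 0.01 (SE 0.0869, edgeR adjusted p = 0.976), although 9 of 10 secretome-treated muscles were below the control median. The muscle fibre markers moved along with Akt2 between controls, with sums of 115407 to 190340 CPM in libraries 1 to 5 and 238172 to 329342 CPM in control libraries 6 to 10. Among libraries 6 to 15 the secretome-treated muscles had sums of 266901 to 316063 CPM, inside the range of those controls. The part of fibre content in the Akt2 difference was not tested.

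The other genes of the pathway were listed by role. Of 84 genes in 6 lists, 78 had enough reads to be tested, and these include the 10 described above. Over 20 libraries 17 of them reached an unadjusted p under 0.05, 11 higher and 6 lower in secretome-treated muscle, and 0 passed the 5% false discovery rate by edgeR. That is 21.8% of the 78, beside 15.7% of all genes tested. The median log2 fold change over the 78 was 0.01, beside -0.03 over all genes. Of 77 pathway genes tested within libraries 6 to 15, 7 had an unadjusted p under 0.05, 2 higher and 5 lower, which is 9.09% beside 9.95% of all genes. The insulin genes were not tested, since Ins1 had no count in any library and Ins2 had at most 3. Likewise, Igfbp1 and Irs4 were at 0 in every library and Igfbp2 and Insrr had too few counts.

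**Figure D5:**
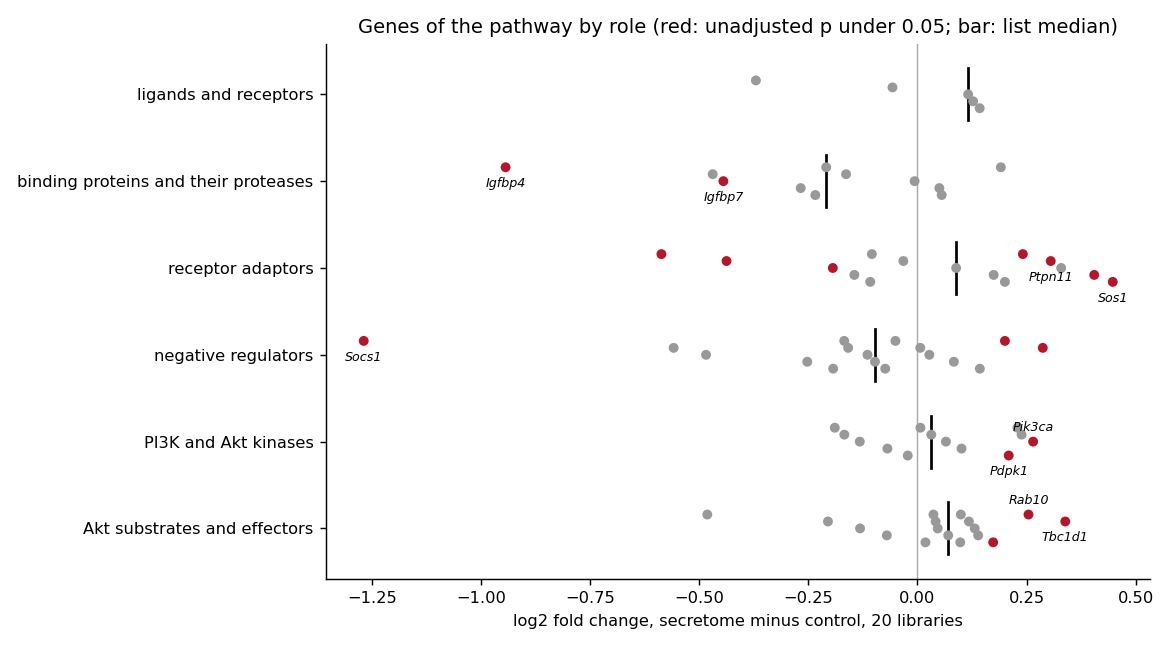
Log2 fold change between secretome-treated and control muscle over 20 libraries for the tested genes of 6 lists by role, with 1 point a gene, red where the unadjusted p was under 0.05, and a bar at the median of the list. The list of binding proteins has the lowest median, -0.21. The list of receptor adaptors holds the most red points, 7 of 15 (46.7%, beside 15.7% of all genes tested).

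Among ligands and receptors, none of 5 tested genes had an unadjusted p under 0.05. The binding proteins and their proteases had 2 of 11 below that threshold, both lower, and a median log2 fold change of -0.21. That is 18.2%, beside 15.7% of all genes tested. Within libraries 6 to 15 it was 3 of 11, all lower, which is 27.3% beside 9.95%. Igfbp4, which binds IGFs and is cut by the protease PAPP-A, ranged from 29.0 to 142 CPM in control (median 60.3) and from 25.5 to 45.1 CPM in secretome-treated muscle (median 37.3). All 10 secretome-treated muscles were below the control median, and the controls of libraries 1 to 5, at 55.2 to 142 CPM, were above every one of them. Igfbp4 had a log2 fold change of -0.94 (SE 0.256, edgeR unadjusted p = 0.00133, adjusted p = 0.136), and DESeq2 gave an adjusted p of 0.0230, the lowest of 29 alternatives, which reached up to 0.357. Its log2 fold change was -0.57 by voom with quality weights. Within libraries 6 to 15, controls had 29.0 to 65.5 CPM and secretome-treated muscles 25.5 to 40.2 CPM, a log2 fold change of -0.45 (edgeR unadjusted p = 0.0458, adjusted p = 0.498), and a two-sided exact permutation test gave p = 0.0952. It was thus smaller there than over all libraries, although the difference between ranges did not pass the false discovery rate (edgeR unadjusted p = 0.0299, adjusted p = 0.373).

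Igfbp7, an IGFBP-related protein of vessel walls and matrix, ranged from 24.9 to 50.2 CPM in control (median 35.4) and from 24.2 to 33.0 CPM in secretome-treated muscle (median 24.7). All 10 secretome-treated muscles were below the control median, and the spread was smaller in them (27.0 ± 3.74 CPM in libraries 16 to 20 and 26.9 ± 3.51 CPM in libraries 11 to 15, SD, n = 5 each). Igfbp7 had a log2 fold change of -0.44 (SE 0.112, edgeR unadjusted p = 0.000577, adjusted p = 0.110), and DESeq2 gave an adjusted p of 0.0341, again the lowest of 29 alternatives, which reached up to 0.333. It was -0.22 once length and GC trends were removed from each library. The Igfbp7 value within libraries 6 to 15 was -0.40, close to the value over 20 libraries (edgeR unadjusted p = 0.00898, adjusted p = 0.447, and a two-sided exact permutation test gave p = 0.0238). By edgeR neither binding protein passed the 5% false discovery rate.

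Markers of other cell types were read beside these binding proteins, and not all of them followed the same pattern. The endothelial sum had a median of 132 CPM in libraries 1 to 5 and 201 CPM in control libraries 6 to 10, the opposite order to Igfbp4. The fibroblast sums given above were highest in libraries 1 to 5, as was Igfbp4. Over all genes tested, 9.21% were lower at an unadjusted edgeR p under 0.05 over 20 libraries and 4.92% within libraries 6 to 15. Of 6 macrophage markers, 4 (Adgre1, Csf1r, C1qa and Lyz2) were lower at that threshold in both sets of libraries. The median log2 fold change of the 6 was -0.66 over 20 libraries. Their sum was 72.2 to 205 CPM in control and 42.8 to 164 CPM in secretome-treated muscle. Smooth muscle markers were lower in 2 of 3 over 20 libraries and in 0 of 3 within libraries 6 to 15 at that threshold, with a sum of 41.3 to 66.0 CPM in control and 29.7 to 64.9 CPM in secretome-treated muscle. The log2 fold changes of Myh11, Acta2 and Tagln were nevertheless similar, at -0.24, -0.54 and -0.40 over 20 libraries. Within libraries 6 to 15 they were -0.35, -0.57 and -0.32 (edgeR unadjusted p = 0.0544, 0.0506 and 0.0698). Endothelial markers were lower in 1 of 5 over 20 libraries (Vwf) and in 2 of 5 within libraries 6 to 15 (Vwf and Cldn5), with sums of 120.1 to 234 CPM in control and 120.3 to 184 CPM in secretome-treated muscle. Within libraries 6 to 15, Vwf was at 40.6 to 63.5 CPM in control and 28.2 to 39.0 CPM in secretome-treated muscle, without overlap, a log2 fold change of -0.59 (edgeR unadjusted p = 0.000615, adjusted p = 0.398), and that of Cldn5 was -0.65 (edgeR unadjusted p = 0.0179, adjusted p = 0.452). Lower values without overlap were found there for 1.09% of all genes tested. Of 5 adipocyte markers, Retn was lower at an unadjusted edgeR p under 0.05 over 20 libraries, and Cidec and Retn within libraries 6 to 15. The median of the 5 was -0.68 over 20 libraries. No tested neutrophil, satellite cell or Schwann cell marker reached that threshold in either set. By edgeR none of these markers passed the 5% false discovery rate in either set of libraries, and by DESeq2 over 20 libraries Csf1r did (adjusted p = 0.0466). The 4 B cell markers, at sums of at most 7.10 CPM, had too few reads for edgeR, and by DESeq2 3 of them passed, all lower. The part of these cell types in the lower Igfbp4 and Igfbp7 values was not tested.

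Of 15 tested receptor adaptors, 4 had higher and 3 lower values over 20 libraries at an unadjusted p under 0.05. That is 46.7%, beside 15.7% of all genes tested (6.52% higher and 9.21% lower). Within libraries 6 to 15, 1 of 14 was higher and 1 lower, which is 14.3% beside 9.95% of all genes. Sos1, a guanine nucleotide exchange factor that links receptors to Ras, had 35.6 ± 8.22 CPM in control and 48.5 ± 8.27 CPM in secretome-treated muscle (SD, n = 10 each), with all 10 secretome-treated muscles above the control median. Its log2 fold change was 0.45 (SE 0.126, edgeR unadjusted p = 0.00171, adjusted p = 0.148), and 0.37 within libraries 6 to 15 (unadjusted p = 0.0206 by edgeR). Ptpn11, which encodes the phosphatase SHP2, had 113 ± 16.5 and 140 ± 21.1 CPM, again with all 10 secretome-treated muscles above the control median (log2 fold change 0.31, edgeR adjusted p = 0.173), but 0.08 within libraries 6 to 15. Of 17 negative regulators, 2 were higher and 1 lower at that threshold over 20 libraries, which is 17.6% beside 15.7% of all genes tested. Within libraries 6 to 15, 1 was higher and 1 lower, which is 11.8% beside 9.95%. There 14 of the 17 had a log2 fold change below 0 and 17.6% one above 0, beside 47.9% above 0 over all genes. The medians there were -0.12 and -0.01. Socs1, an inhibitor of cytokine and insulin signalling, had 2.91 ± 3.51 and 1.21 ± 1.03 CPM (log2 fold change -1.27, edgeR adjusted p = 0.247), and control replicate 3 alone had 12.3 CPM. Without that replicate the Socs1 log2 fold change was -0.63, and within libraries 6 to 15 it was -0.85 (edgeR unadjusted p = 0.0685).

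Of 13 PI3K and Akt kinases, 2 had higher values over 20 libraries at an unadjusted p under 0.05 and none lower. That is 15.4%, beside 15.7% of all genes tested, and within libraries 6 to 15 it was 0 of 13, beside 9.95%. Pdpk1, the kinase that phosphorylates Akt, had 80.2 ± 9.86 CPM in control and 92.8 ± 5.94 CPM in secretome-treated muscle (log2 fold change 0.21, edgeR adjusted p = 0.205), and 0.17 within libraries 6 to 15. Pik3ca, the catalytic subunit p110 alpha of PI3K, had 73.3 ± 12.5 and 88.0 ± 10.2 CPM (log2 fold change 0.27, edgeR adjusted p = 0.211), and 0.05 within libraries 6 to 15. Of 17 Akt substrates and effectors, 3 had higher values at that threshold over 20 libraries and none lower. That is 17.6%, beside 15.7% of all genes tested, and within libraries 6 to 15 it was 0 of 17, beside 9.95%. Rab10, a small GTPase of GLUT4 vesicle traffic, had 341 ± 45.5 and 407 ± 36.1 CPM (log2 fold change 0.25, edgeR adjusted p = 0.188), and 0.12 within libraries 6 to 15. Tbc1d1, a Rab GTPase-activating protein phosphorylated by Akt, had 107 ± 22.7 and 135 ± 30.2 CPM (log2 fold change 0.34, edgeR adjusted p = 0.239), and 0.32 within libraries 6 to 15. Over 20 libraries 13 of the 17 substrates (76.5%) had a log2 fold change above 0, beside 44.1% of all genes tested. The medians were 0.07 and -0.03. Within libraries 6 to 15, 12 of 17 had one below 0 and 29.4% one above 0, beside 47.9% above 0 over all genes. The medians there were -0.07 and -0.01.

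The genes most like each member across the 20 libraries, after the mean of each of the 4 combinations of treatment and library range was subtracted, were found among 13171 genes. The highest Pearson correlations were 0.866 between Akt1 and Hmgb1, a chromatin protein, 0.851 between Igfbp5 and Rbbp7, a histone-binding protein, and 0.850 between Akt2 and Srp68, a subunit of the signal recognition particle. For Igf1 the nearest gene was Prune2 (r = 0.833), for Igfbp3 it was Gm48225 (r = 0.839), and for Insr it was Satb1 (r = 0.812). Igf2 was nearest to Gm37084 (r = 0.800), Igf1r to Usp28 (r = 0.776) and Irs1 to Gm15833 (r = 0.746). These correlations describe 20 libraries, are the highest of many, and share the depth and composition of each library.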

How the data were processed

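Total RNA of 20 quadriceps muscles was depleted of ribosomal RNA, made into stranded libraries and sequenced in pairs of 150 bases. The authors deposited whole-number counts of reads per gene, without normalization, in 1 column per muscle, and the submitters' processing notes list STAR 2.7.9a, cutadapt 1.16, featureCounts 1.6.3, DESeq2 1.34.0 and the build GRCm39. Whether counting used strand is not given in the sources used here. The extraction text of the labels speaks of myotubes, while the tissue label is quadriceps. No 2 columns were identical. Groups and replicate numbers came from the sample titles.

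Counts were filtered with filterByExpr and normalized with TMM in edgeR 4.0.16 (R 4.3.3). Treatments were compared by the robust quasi-likelihood F-test over 14471 genes, adjusted by the Benjamini-Hochberg procedure to a false discovery rate of 5%, and again within libraries 6 to 15 with a filter, normalization and dispersions of their own. A fit with 4 groups of treatment by library range tested whether the treatment differences differed. Each standard error is the size of the log2 fold change divided by the square root of its F statistic. CPM used TMM library sizes, and log2 CPM a prior count of 2. Separate mice gave separate libraries, and p-values measure the spread between them. Alternatives were DESeq2 1.42.0, limma 3.58.1 voom with quality weights, the RLE normalization, total counts alone, no filter, the replicate number as a block, a term for libraries 6 to 15, removal of length and GC trends, and each muscle left out in turn.

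Symbols, exon lengths and GC content came from GENCODE M21 (GRCm38), which covered 99.63% of the genes tested, and coordinates of that build are given only with RefSeq promoter sequences of GRCm38.p6. Insr had no promoter entry. The procedure was tested on simulated data. The 10 genes and the lists were chosen with earlier results of these data known. Named beside the 10 are the 2 genes with the smallest edgeR p in each pathway list (1 of them is not reported here), the genes most like each of the 10 in log2 CPM, and marker genes whose values touch a result.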

Additional observations from a re-analysis of the deposited data

Results flagged for a closer look

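The Akt1 level of control replicate 9, 6.503 on the log2 CPM scale, stood apart from the other 9 controls, of which the next was at 5.907. The gap was 0.524 of the range of the group, above the critical value of Dixon's gap test for 10 samples at the 95% level. In all, 40 groups of values (20 genes in control and in secretome-treated muscle) were examined, 1 held such a value, and chance alone gives about 2.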

How the results depend on the processing

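None of the 10 genes passed the 5% false discovery rate in any of 29 alternatives over 20 libraries, 14 within libraries 6 to 15 or 2 for the difference between library ranges. The count over all genes, 1 in 20 libraries, was 213 by DESeq2 (67 higher, 146 lower), 3 by voom, 2 with length and GC trends removed, 0 with total counts alone, 0 with the replicate block and 0 with control replicates 3 and 9 left out, an alternative chosen after seeing the data. When 1 muscle was left out, it was lowest without control replicate 6, at 0, and highest without control replicate 5, at 15. Within libraries 6 to 15 the count of 0 became 37 by DESeq2 (11 higher, 26 lower) and 11 with no filter, and ran from 0 to 2 (without control replicate 8) with 1 muscle left out. Among the pathway genes, 2 (Igfbp4 and Igfbp7) passed by DESeq2 and none in the other alternatives. The cause of these changes was not tested.

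Of 740 single-gene log2 fold changes, 716 kept their direction and side of the threshold, 2 passed it only by DESeq2 and 22 changed sign, each at a small value. Total counts alone moved the median of all genes from -0.03 to -0.16, and gave -0.038 for Igf1, -0.054 for Igfbp5 and -0.10 for Akt2. With length and GC trends removed, Igf1 was at -0.035 and Akt1 at 0.0059, voom gave -0.050 for Akt2, and without control replicates 3 and 9 Akt1 was at 0.00070. By DESeq2 the difference between ranges was -0.00080 for Igfbp5. With 1 muscle left out, the log2 fold change ran from -0.060 to 0.25 for Igf1, from -0.023 to 0.12 for Igfbp5 and from -0.029 to 0.040 for Akt2, and within libraries 6 to 15 from -0.016 to 0.082 for Igf1r and from -0.045 to 0.16 for Igfbp5. The order of levels per length kept 6 of 10 places with the longest transcript. After treatment means were subtracted, the correlation of same-numbered muscles ran from -0.24 to 0.221 and was above 0.1 in 2 of 10. Each such pair joins a library of 6 to 15 with one outside that range. Differences between library ranges therefore enter these correlations, which cannot decide whether replicate numbers pair the muscles. The replicate block changed no call among the 10 genes.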

Other observations

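The treatment difference was also compared between library ranges for the other genes of the pathway. Of 78 tested genes, 13 had an unadjusted p under 0.05 for the difference between libraries 6 to 15 and the other libraries, 2 higher and 11 lower, which is 16.7% beside 11.1% of all genes, and none passed the 5% false discovery rate by edgeR. Of the 17 Akt substrates and effectors, 5 were among them, all lower: Foxo1, Foxo3, Tsc1, Tsc2 and Gys1, named after their values were seen. Foxo1, a transcription factor held out of the nucleus by Akt, had a log2 fold change of -0.43 within libraries 6 to 15 and 0.60 between libraries 1 to 5 and 16 to 20 (difference -1.05, edgeR adjusted p = 0.265). Igf2r, the receptor that clears IGF2, had -0.10 and 0.42 (difference -0.54, edgeR adjusted p = 0.218), with 111 to 143 CPM in libraries 1 to 5, 177 to 249 CPM in control libraries 6 to 10, 160 to 242 CPM in secretome libraries 11 to 15 and 160 to 178 CPM in libraries 16 to 20.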
